A study of Rattus norvegicus with 6 samples.

Results

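The microRNAs miR-130a, miR-130b, miR-301a, miR-301b, miR-148a, miR-148b and miR-152 form 2 small families that were measured in rat cardiomyocytes and in the myocyte-derived cells (MDCs) that arise from them in culture. The members are every mouse or rat assay on the card named for miR-130, miR-301, miR-148 or miR-152, which gave 7 of 375 miRNA assays. Of these, 4 belong to the miR-130/miR-301 family (mmu-miR-130a, mmu-miR-130b, mmu-miR-301a and mmu-miR-301b) and 3 to the miR-148/miR-152 family. All 7 are mouse assays, and all had signal in every set of measurements. The samples came from Wistar-Kyoto rats of 2 months, with no transgene or drug in either group. The Myocyte group holds mature heart cells that were purified by sedimentation, a density gradient and preplating. The MDC group holds the small, round, loosely attached cells collected from the same kind of cultures, which the labels call dedifferentiated cardiac progenitor cells. The labels name 2 weeks of culture in a medium rich in mitogens for both groups, whereas the text of the study describes the myocytes as freshly isolated. No lineage reporter marked the rat cells, so the origin of single MDCs was not recorded in these samples.

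A miRNA guides a silencing complex to messenger RNAs that pair with its seed, the bases from position 2 to 8, so miRNAs with the same seed can share targets. The miR-130/miR-301 family has been studied in blood vessels, fat and tumours, where members repress the transcription factors MEOX2 and PPARG in human cells. The miR-148/miR-152 family is best known for repressing the DNA methyltransferase DNMT1, and for targeting HLA-G in human cells. The genes lie at scattered places, except for miR-130b and miR-301b, which are neighbours on the same strand and may be cut from 1 transcript.

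The mature sequences below, from RefSeq (build GRCr8), show the seeds by which the members listed are read as 2 families. They also show that some members differ little and that miR-301b differs more. They are the 3p products, the arm that assay names without an arm stand for here, and the capitals mark the seed. Of the 7 members, 6 matched a mature 3p entry, and miR-301a is named only.
miR-130a: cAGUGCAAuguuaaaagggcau
miR-130b: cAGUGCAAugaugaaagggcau
miR-301b: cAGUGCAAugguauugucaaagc
miR-148a: uCAGUGCAcuacagaacuuug
miR-148b: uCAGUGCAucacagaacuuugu
miR-152: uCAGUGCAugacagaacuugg

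The miR-130/miR-301 sequences share the seed AGUGCAA and the miR-148/miR-152 sequences the seed CAGUGCA. The 2 families share the run CAGUGCA, which starts at base 1 in the first family and at base 2 in the second. This run is the whole seed of the second family. The seed of the first family holds the run without its leading C, followed by a further A. Each seed occurs in 3 of 692 distinct rat mature sequences in the table, those listed above. The table is not complete, so assays with either seed and no entry in it would have been missed. Counted from base 1 at the 5′ end, miR-130b differs from miR-130a at 2 of 22 bases (U11A and A13G). It matches miR-301b, its neighbour in the genome, at 12 of 22. miR-148b differs from miR-148a at 2 of 21 bases (C9U and U10C), and miR-152 differs from miR-148b at 2 of 21 (C10G and U20G). How far an assay also reads its close relative was not measured, so values of such relatives may partly share template.

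In GRCr8 the hairpin of miR-301b lies at chr11:97384033-97384110 and that of miR-130b at chr11:97384380-97384461, both on the plus strand and 269 bases apart. Both lie inside the bounds of the gene annotated as 2610318N02Rikl. The miR-148b hairpin (chr7:136299870-136299966, plus strand) lies inside Copz1 and the miR-152 hairpin (chr10:82329383-82329467, plus strand) inside Copz2, genes of related coat proteins of transport vesicles. The miR-301a hairpin (chr10:72422599-72422698, plus strand) lies within the bounds of Ska2, which serves chromosome segregation, and of Prr11. miR-130a (chr3:90229228-90229315, minus strand) and miR-148a (chr4:81664431-81664527, minus strand) lie within no other annotated gene. The table used gives gene bounds only, so exon and intron were not told apart.

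The RNA was read, after reverse transcription and pre-amplification, by PCR on a TaqMan card with 381 distinct assays. Each well yields a Ct, that is, the PCR cycle at which fluorescence passes a threshold, so a lower Ct means more template. Levels are given as the mean Ct of the 4 U6 wells minus the Ct of the assay in the same set, in log2 units, so a higher level means more miRNA relative to U6, a small nuclear RNA. Between 201 and 212 miRNAs had signal in a set. A Ct does not give a number of molecules, and it is the small number of samples that limits the precision.

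There are 3 sets per group, but not 3 independent samples. The 3 MDC sets had signal for exactly the same miRNAs, and so had Myocyte 2 and Myocyte 3, while Myocyte 1 and Myocyte 2 differed for 23. The pattern among the U6 wells was also the same, to within 0.034 cycles among the MDC sets and 0.011 cycles between Myocyte 2 and Myocyte 3. Such sets were treated as repeat readings of 1 card and averaged, so that 2 myocyte cards were compared with 1 MDC card. No label states this, and the methods mention biological and technical repeats without saying which sets they are. Reading all MDC sets as the same card leaves that group without a biological repeat, which may conflict with those methods. The readings of the MDC card were far from alike, with an SD of the Ct difference of 1.07 and 1.40 cycles between MDC 1 and MDC 2 or MDC 3 and of 0.37 between MDC 2 and MDC 3. It was 0.50 and 0.52 between Myocyte 1 and the other myocyte sets and 0.09 between Myocyte 2 and Myocyte 3. MDC 1 stands apart further: 88.5% of its wells with signal had a Ct within 0.05 of a whole cycle, against 6.85% to 12.9% in the other sets. The Ct values of all 7 members in MDC 1 were within 0.042 of a whole cycle. The members' differences are therefore given with and without MDC 1.

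Differences are MDC minus myocyte, tested with limma over the 157 miRNAs with signal in every set, with Benjamini-Hochberg adjustment at 0.05. The fit gave all miRNAs 1 common SD, 0.28 log2 units, and the standard error of every difference was 0.35 (2 cards against 1). This error comes from the 2 myocyte cards alone, and the MDC card was assumed to vary as they do. The p-values hold no spread between MDC cultures, and what separates the myocyte cards may be technical. The fit counted 157 degrees of freedom, pooled over miRNAs read on the same 2 myocyte cards. Very small p-values reflect this pooling and not many samples. The SD of single miRNAs over these cards ran from 0.0015 (miR-7a) to 1.30 (miR-337-5p). In such bulk samples, fewer cells of a type and less RNA per cell cannot be told apart.

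Of the 7 members, 4 were lower in MDCs (miR-130a, miR-301a, miR-301b and miR-148b), 2 were higher (miR-130b and miR-148a) and miR-152 did not pass. Over all 157 miRNAs, 52.2% were lower and 28.0% were higher, so these shares are near those of the whole card. The differences ran from −4.05 to 1.47 log2 units with a median of −1.60, against a median of −0.80 over all miRNAs tested. Without MDC 1 the same 4 were lower (47.1% of all miRNAs) and miR-152 joined the 2 that were higher (34.4% of all miRNAs). Both families held members that moved in opposite directions.

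**Figure D1:**
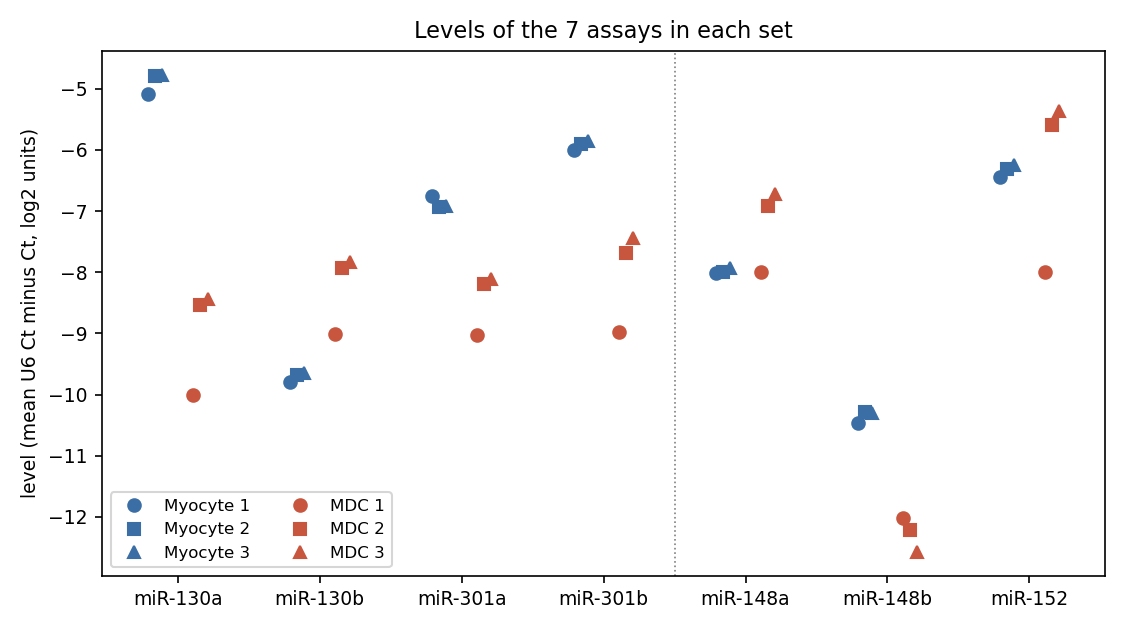
Level of each member (mean U6 Ct minus Ct, log2 units) in the 3 myocyte sets (blue) and the 3 MDC sets (red), with symbols for the set number and a dotted line between the families. The MDC sets lie below all myocyte sets for miR-130a, miR-301a, miR-301b and miR-148b and above them for miR-130b, while MDC 1 lies apart from MDC 2 and MDC 3 for most members.

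miR-130a, which in human endothelial cells represses the growth-restraining factors MEOX2 and HOXA5, had the largest difference of the 7 with U6. Its levels were −5.09, −4.80 and −4.77 in Myocyte 1, 2 and 3 and −10.00, −8.54 and −8.43 in MDC 1, 2 and 3. All MDC sets lay below all myocyte sets, as they did for 49.7% of the miRNAs tested. From −4.94 ± 0.22 (SD, n = 2 cards) in myocytes its level fell by a difference of −4.05 ± 0.35 (SE), a 16.6-fold lower value (limma adjusted p = 1.96e-22). Without MDC 1 the difference was −3.55, or 11.7-fold. It turned to 0.44 with Y1, which did not pass, to 2.18 with the mean of the other controls and to 10.04 with U87, the lowest of the 7 members each time. In raw cycles its Ct moved from between 19.7 and 19.9 in myocytes to between 21.9 and 24.0 in MDCs, without overlap before any normalizer was applied. The endothelial assays miR-126-3p and miR-126-5p, the whole endothelial list, were lower too, with differences of −8.35 and −8.03, or −7.87 and −7.57 without MDC 1 (summed level −3.78 to −3.35 in myocytes, −12.84 to −11.39 in MDCs), and turned higher only with U87 among the normalizers run. Their part in the miR-130a result was not tested.

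miR-130b, which shares the seed of miR-130a and differs from it at 2 bases, moved the other way. Its levels were −9.79, −9.68 and −9.65 in the myocyte sets, against −9.00, −7.92 and −7.83 in the MDC sets. Every MDC set lay above every myocyte set, which was true of 23.6% of the miRNAs tested. The level rose by 1.47 ± 0.35 (SE) log2 units from −9.73 ± 0.08 (SD, n = 2 cards), a 2.78-fold change (limma adjusted p = 6.18e-05). Without MDC 1 it rose by 1.85 log2 units, or 3.60-fold. The direction was the same with each of the 7 other ways of normalizing that were run, and the call was lost only when the MDC readings were entered as 3 samples (adjusted p = 0.0646).

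miR-301b, encoded 269 bases from miR-130b, was lower in MDCs. Its levels were −6.01, −5.91 and −5.86 in the myocyte sets, against −8.98, −7.69 and −7.44 in the MDC sets, with no overlap. The difference was −2.09 ± 0.35 (SE) log2 units from a myocyte level of −5.95 ± 0.09 (SD, n = 2 cards), a 4.26-fold lower value (limma adjusted p = 2.55e-08), and −1.62 without MDC 1. The 2 neighbours thus went in opposite directions on the same cards with U6. Taking miR-130b minus miR-301b within each set removes the normalizer altogether. That value was −3.78, −3.77 and −3.79 in the myocyte sets, against −0.02, −0.24 and −0.39 in the MDC sets. The myocyte values agree to within a few hundredths of a cycle, and the MDC values are far above them in every reading. The pair difference changed by 3.57 log2 units between the groups, by 3.47 without MDC 1, and by 3.39 to 3.76 with single MDC readings.

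To place this, other pairs of neighbouring miRNA genes were looked up in the annotation. Of the pairs on 1 strand with at most 1000 bases between them and signal in every set, 13 could be formed, some of which share an assay. Assays that did not match 1 gene by name were left out, as were genes with more than 1 matched assay. The 13 are therefore not all neighbouring pairs on the card. The change of the pair difference had a median size of 0.72 log2 units over the other 12 pairs and ranged from 0.03 to 3.06. The pair of miR-130b and miR-301b had the largest of the 13 and remained so without MDC 1, when the other pairs reached 2.92. miR-191 with miR-425 (−3.06) and miR-18a with miR-20a (2.91) came next, so large shifts between neighbours were not confined to 1 pair. Without MDC 1 these 2 changes were −2.01 and 2.92, and miR-191 with miR-425 was then at place 5 of the 13. This is a description of 13 pairs with no test.

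**Figure D2:**
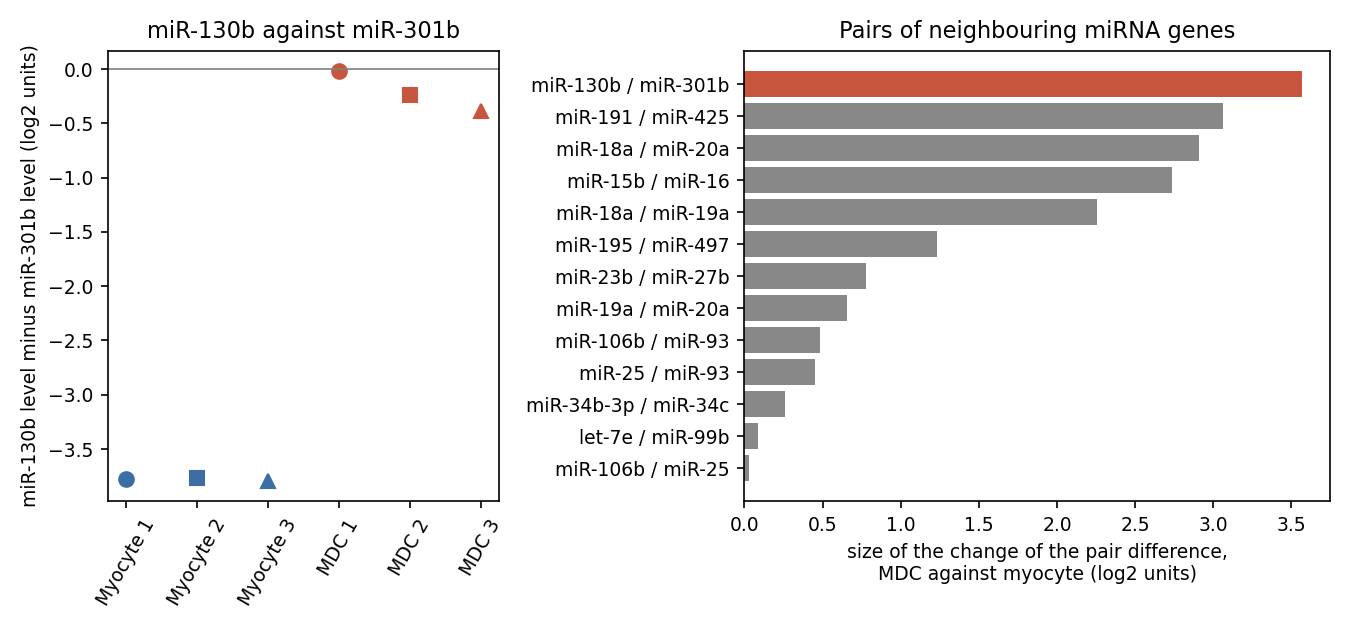
Left, the miR-130b level minus the miR-301b level (log2 units) in each set. Right, the size of the change of the pair difference between MDCs and myocytes (log2 units) for the 13 pairs of neighbouring miRNA genes, with bars from 0 and the pair of miR-130b and miR-301b in red at 3.57, ahead of miR-191 and miR-425 at 3.06.

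miR-301a, which lies within the bounds of Ska2, followed miR-301b in direction. Its levels were −6.76, −6.94 and −6.92 in the myocyte sets, against −9.02, −8.20 and −8.11 in the MDC sets. The groups did not overlap, and the difference was −1.60 ± 0.35 (SE) log2 units from −6.84 ± 0.12 (SD, n = 2 cards), or 3.03-fold lower (limma adjusted p = 1.44e-05). Without MDC 1 it was −1.31 (adjusted p = 0.000344). The call was lost with the median of all miRNAs in place of U6 (−0.76, adjusted p = 0.0579) and with raw Ct values (−0.69, adjusted p = 0.0805). It turned to 2.89 with Y1, 4.64 with the mean of the other controls and 12.49 with U87, and each of these passed as higher. Its raw Ct was 21.4 to 22.0 in myocytes and 22.99, 21.6 and 22.5 in MDC 1, 2 and 3. The difference between the 2 miR-301 assays changed by only 0.49 log2 units between the groups, and by 0.31 without MDC 1.

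Within the miR-130/miR-301 family, the pair differences separated miR-130b from its relatives. Relative to miR-130b, miR-130a fell by 5.53 log2 units, from an excess of 4.79 in myocytes to a deficit (−0.74) in MDCs (a change of −5.40 without MDC 1). miR-130b gained 3.08 on miR-301a (3.16 without MDC 1), and miR-130a lost against miR-301a (−2.45, or −2.24 without MDC 1) and miR-301b (−1.96, or −1.93). In each of these pairs the 3 MDC sets did not overlap the 3 myocyte sets. These values compare changes and not amounts, since 2 assays can differ in efficiency.

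**Figure D3:**
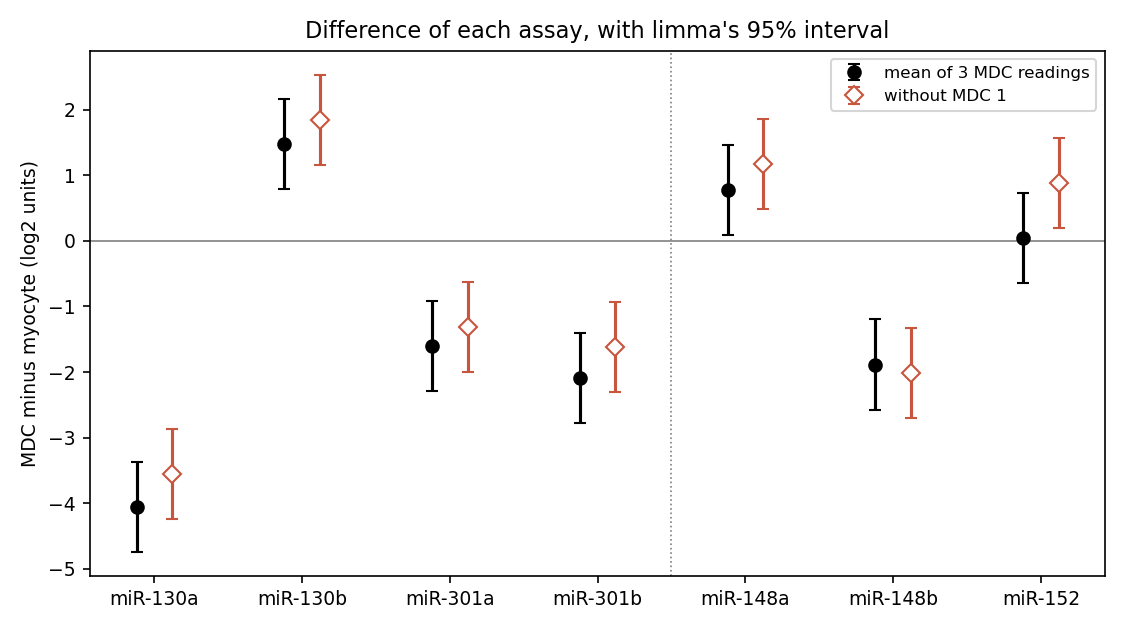
MDC minus myocyte difference of each member (log2 units) with the 95% interval of limma, with the mean of the 3 MDC readings (black) and without MDC 1 (open red). miR-130a is lowest at −4.05 and miR-130b highest at 1.47, and miR-152 shifts from 0.04 to 0.88 when MDC 1 is left out.

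In the miR-148/miR-152 family each member did something else. miR-148b, within Copz1, was lower. Its levels were −10.47, −10.29 and −10.30 in the myocyte sets, against −12.02, −12.21 and −12.57 in the MDC sets, without overlap. The difference was −1.89 ± 0.35 (SE) log2 units from −10.38 ± 0.12 (SD, n = 2 cards), a 3.69-fold lower value (limma adjusted p = 4.06e-07). It was −2.01 without MDC 1, so this member barely depended on that reading. Its Ct was late among the members, at 25.1 to 25.4 in myocytes and 25.6, 25.99 and 27.006 in MDCs.

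miR-148a, a repressor of DNMT1 and DNMT3B in human cells, had levels of −8.01, −8.00 and −7.94 in the myocyte sets, against −8.00, −6.91 and −6.73 in the MDC sets. MDC 1 fell among the myocyte sets, whereas MDC 2 and MDC 3 lay above them. The difference of 0.78 ± 0.35 (SE) log2 units, or 1.71-fold, passed narrowly (limma adjusted p = 0.0356, 95% interval 0.09 to 1.46). It rested on MDC 2 and MDC 3: without MDC 1 it was 1.17 (adjusted p = 0.00139), without MDC 2 it was 0.63 and without MDC 3 it was 0.53, and neither of these passed (adjusted p = 0.0891 and 0.156). With snoRNA135 in place of U6, with missing Ct values set at 40, and with all 3 MDC readings as separate samples it did not pass either, while it passed at 1.17 with MDC 2 and MDC 3 as separate samples and MDC 1 left out.

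miR-152, within Copz2 and a repressor of DNMT1, had levels of −6.44, −6.31 and −6.25 in the myocyte sets, against −8.00, −5.59 and −5.37 in the MDC sets. MDC 1 lay below all myocyte sets and the other MDC readings above them. The mean difference was therefore 0.04 ± 0.35 (SE) log2 units (95% interval −0.65 to 0.73, limma adjusted p = 0.915). It was 0.88 without MDC 1 (95% interval 0.19 to 1.57, adjusted p = 0.0158), and −1.64 with MDC 1 alone (adjusted p = 8.24e-06). The direction of miR-152 was thus not settled by these readings.

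The pair differences within this family were less even than in the other. miR-148a gained 2.66 log2 units on miR-148b, from 2.39 to 5.05, and 3.18 without MDC 1, with single readings from 1.63 to 3.45 and no overlap between the groups. miR-148b minus miR-152 was −4.02, −3.98 and −4.05 in the myocyte sets. In MDC 1 it was −4.02, near the myocyte values, and in MDC 2 and MDC 3 it was −6.62 and −7.20. Every member Ct in MDC 1 lay near a whole cycle, so its pair differences fall near whole numbers and cannot show a fine match. miR-148b minus miR-152 changed by −1.93, or by −2.89 without MDC 1. miR-148a minus miR-152 changed by 0.74, and by 0.29 without MDC 1.

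The choice of normalizer set the direction of the 4 lower members. U6 Ct was 14.7 to 15.1 in myocytes and 13.4 to 14.4 in MDCs, and snoRNA135 moved from between 21.9 and 22.5 to between 20.5 and 22.0. Y1 moved from between 19.6 and 20.5 to between 22.0 and 25.5, and U87 from between 18.5 and 18.7 to between 30.98 and 33.2. With snoRNA135 in place of U6 the 4 stayed lower, at −3.92 for miR-130a, −1.96 for miR-301b, −1.75 for miR-148b and −1.47 for miR-301a. With Y1, U87 or the mean of the 3 other controls their differences turned positive, and the median of all 157 miRNAs was then 3.69, 13.29 and 5.44. With the mean of all miRNAs, miR-130a was at −3.15, miR-130b at 2.38 and miR-148a at 1.68, and miR-152 passed as higher at 0.94 (limma adjusted p = 0.0052). The order of the members, with miR-130a lowest and miR-130b highest, does not depend on this choice because a normalizer shifts all alike.

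**Figure D4:**
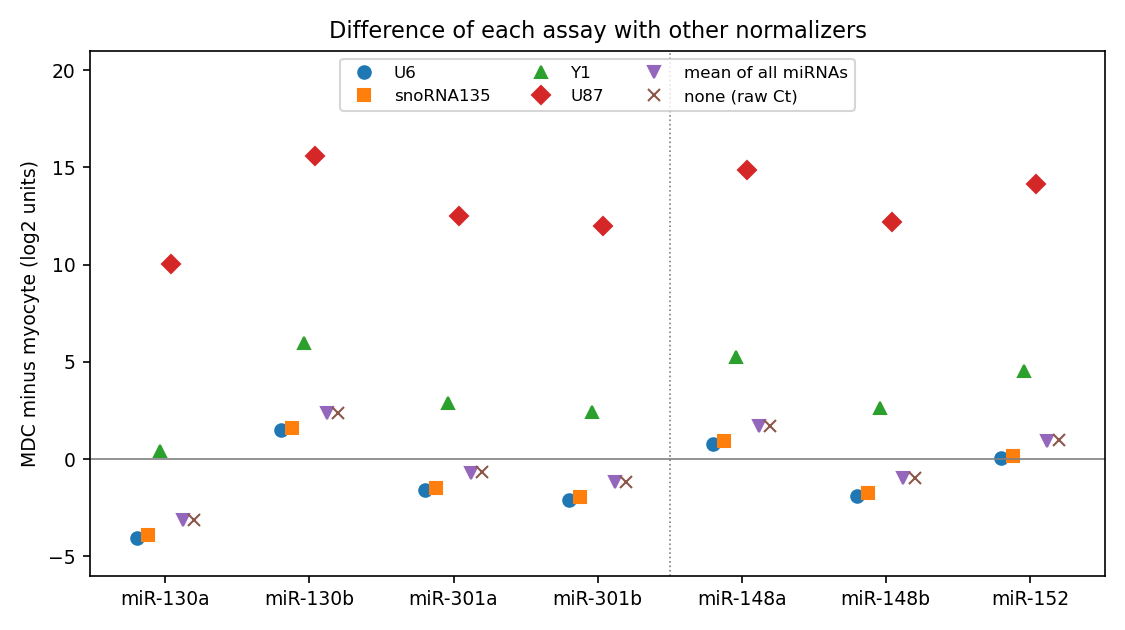
MDC minus myocyte difference of each member (log2 units) with U6, with each of 3 other controls, with the mean of all miRNAs and without a normalizer. The points of U87 (10.04 to 15.57) and Y1 (0.44 to 5.96) lie above 0 for every member, and those of U6 and snoRNA135 nearly coincide.

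The miRNAs whose profile over the 6 sets was most like that of each member were found by the root mean square distance of centred levels, over 157 miRNAs. For miR-301b these were miR-195 (0.060 log2 units), let-7c (0.079) and miR-135a (0.086), and for miR-130a they were miR-192 (0.089), miR-434-3p (0.181) and miR-194 (0.215). miR-130b was nearest to miR-19a (0.154), miR-350 (0.206) and miR-19b (0.237), both miR-19 members being encoded with miR-17 and miR-92a in 1 cluster. miR-301a was nearest to miR-24 (0.198), miR-145 (0.200) and miR-324-5p (0.204). miR-148a was nearest to miR-203 (0.129), miR-193b (0.147) and miR-350 (0.151), and miR-148b to miR-103 (0.319), miR-181a (0.321) and miR-24 (0.431). miR-152 was nearest to miR-140 (0.063), miR-872 (0.168) and miR-20b (0.186). None of these nearest profiles belonged to the 2 families, whose closest members were miR-301a with miR-301b (0.345) and miR-130b with miR-148a (0.346). The readings of a card share its RNA and its shifts, so these distances describe 3 cards and not 6 samples. They include MDC 1 with its near-whole cycles, which can bring profiles closer or further apart, and were not computed without it. miR-135a was also read late, at a level of −18.06 in myocytes and −20.09 in MDCs.

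Other miRNAs with targets in common were counted from lists drawn up from general knowledge. The miR-29 family, which represses the DNA methyltransferases DNMT3A and DNMT3B, had 3 of 3 assays lower with U6 (miR-29a −1.37, miR-29b −1.76 and miR-29c −3.81), where 52.2% of all miRNAs were lower. Without MDC 1 the differences were −0.93, −0.89 and −2.92. With the mean of all miRNAs or raw Ct 2 of the 3 were lower, while 3 turned higher with U87 or the 3 other controls averaged and 2 with Y1. Both PPARG-repressing miRNAs outside the families, miR-27a (−3.08) and miR-27b (−2.97), were lower with U6, again beside 52.2% of all miRNAs. They were at −2.50 and −2.22 without MDC 1, and turned higher with U87, Y1 or the 3 other controls averaged.

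The labels were set beside cell type markers, from lists chosen with earlier results of these data known, so this is no independent check. Over all 157 miRNAs tested, 52.2% were lower and 28.0% were higher with U6, and the counts below stand beside these shares. Of 8 striated muscle assays, 5 were lower in MDCs and the other 3 (miR-208, miR-208b and miR-486) had no signal there, with a summed level of 4.32 to 4.57 in myocytes and −8.09 to −7.30 in MDCs. The 5 measured in both groups include a mouse and a rat assay of miR-1, so they are not 5 separate miRNAs. These 5 turned higher only with U87. Of 5 fibroblast assays, 4 were higher with each normalizer and the last, miR-199a-5p, gave signal in MDCs alone. Their summed level with U6 was −5.94 to −5.82 in myocytes and −1.81 to −0.86 in MDCs. Both smooth muscle assays were lower with U6, with a summed level of −0.22 to −0.05 against −2.90 to −1.73, but turned higher with U87, Y1 or the 3 other controls averaged. Of 5 leukocyte assays, 3 were lower, 1 was higher and 1 had signal in MDCs only (summed level −4.18 to −4.04 against −6.96 to −4.61). The counts lower and higher became 1 and 3 with the other controls averaged, 1 and 2 with Y1 and 0 and 4 with U87. miR-451, the erythroid assay, had signal in myocytes only, at a low level of −19.14 to −18.25. These lists moved with the groups, and their part in the members' differences was not tested.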

How the data were processed

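The members and lists were chosen with earlier results of these data known. RNA of both groups was reverse-transcribed and pre-amplified, and the authors read it on TaqMan rodent miRNA cards with the software of the PCR system, whose threshold and baseline settings are not given in the sources used here. The deposited values are raw Ct, in PCR cycles, and a table of Ct minus mean U6 Ct, which differed from the raw values so treated by at most 5e-05. Wells with no signal read undetermined in Myocyte 1, while the remaining sets hold a Ct of 40 there.

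Levels were mean U6 Ct minus Ct. Sets of 1 group with the same miRNAs without signal were treated as readings of 1 card and averaged. Differences were tested with limma 3.58.1 in R 4.3.3 (lmFit and eBayes, two-sided, Benjamini-Hochberg over 157 miRNAs), in place of the unpaired test of the methods, which was run as an alternative. Sequences and gene bounds came from RefSeq tables of GRCr8, in which 270 assays matched 1 miRNA gene by name. All members are named, beside the 3 nearest profiles of each and at most 3 miRNAs of each target list. A further target list is not reported here. Markers without signal in 1 group, cluster pairs and values beside a count were named after they were seen. Alternatives were other normalizers, limits of detection at Ct 35 and 32, missing Ct at 40, trend and robust moderation, other groupings of the sets, the replicate block and leaving out each set. The fit with MDC 2 and MDC 3 as separate samples and no MDC 1 was chosen after seeing the data. Plots were made in Python 3.11.15 (matplotlib 3.10.9).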

Additional observations from a re-analysis of the deposited data

How the results depend on the processing

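Over all combinations of a member and an alternative, 146 kept the direction and, where a test could be run, the side of the threshold (for miR-152, those that stayed without a call, whatever the sign). Of the others, 12 lost the call, 10 gained it and 14 changed sign. Among those that changed sign, miR-130a with Y1 (0.44) and miR-148a with MDC 1 alone (−0.011) did not pass in the new direction. The count of lower members went from 4 to 0 with the mean of the other controls, with Y1 and with U87. There their differences turned to 2.18, 0.44 and 10.04 for miR-130a, 4.64, 2.89 and 12.49 for miR-301a, 4.15, 2.40 and 12.00 for miR-301b, and 4.35, 2.60 and 12.21 for miR-148b. The 2 higher members became 7, 6 and 7 under these normalizers. They became 1 with snoRNA135, with missing Ct at 40, with MDC 1 alone, with all 6 sets as separate samples, and with the methods' t-test on the 6 sets, adjusted or not, and 0 with the MDC sets as 3 samples. Over all miRNAs, the share higher was 25.5% with snoRNA135, 33.3% with missing Ct at 40 and 20.4% with MDC 1 alone. It was 22.3% with all 6 sets as separate samples and 19.7% with the MDC sets as 3 samples. The t-test gave 21.7% unadjusted and 21% adjusted. With MDC 1 alone miR-148a was at −0.011 and miR-152 at −1.64. Leaving out single sets gave 1 to 3 higher members and 4 lower ones, beside 24.2% to 34.4% and 47.1% to 55.4% of all miRNAs. Leaving out Myocyte 1 leaves 1 card a group and no test. With the replicate block on the 6 sets, 4 members were lower and 1 was higher, as without it, beside 43.9% and 21.7% of all miRNAs. No label pairs the same-numbered sets. Correlations of deviations were 0.117, −0.077 and 0.238 between same-numbered sets and ran from −0.193 to 0.080 between the others. Since the sets include repeat readings of 1 card, these values cannot settle whether same-numbered sets were paired.
With U6, 82 of 157 miRNAs were lower and 44 higher. The counts became 10 and 140 with the mean of the other controls, 16 and 120 with Y1, 0 and 157 with U87, and 65 and 64 with the mean of all miRNAs. Precision is limited by 3 cards, by the lone MDC card and by the near-whole cycles of MDC 1.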
